A study of Mustela putorius furo with 8 samples.

Results

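Of the 41 clusters into which the study had divided WT ferret pancreatic ductal epithelial (PDE) cells, 9 carried the class name ductal and held almost no SOX2, a transcription factor gene of the foregut and airway. They contained 4861 of the 21600 WT cells and of the 32945 cells in the series. A cluster was chosen when the summed SOX2 UMIs of its cells (unique molecular identifiers, 1 per counted RNA molecule) were below 10 CPM, counts per 1e6 UMIs. The cells were thus chosen by their own SOX2 level, and the clusters had been formed from all genes, so their differences from the other WT cells are descriptions with no test. The 9 clusters are called the SOX2-low ductal cells below.

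The cells came from pancreata of newborn ferrets aged 1-3 days. Ductal structures were grown on plates coated with 804G matrix for 10 passages and then polarized on transwell inserts at an air-liquid interface (ALI). Droplet libraries were made at day 2, 5, 7 and 9, with 1 library for each day and genotype, WT or CFTR knockout (CF), which made 8 libraries. The study states that cells of 3 donors were pooled for each genotype, and that the donors differed in PDX1 between the genotypes. No cell was assigned to an animal, so donor and cell state cannot be told apart, and no value has a replicate error. Intervals are 95% intervals that cover counting error only. The other WT cells numbered 16739, of which 7314 were ductal cells of SOX2-high clusters and 618 were SOX2-low cells of other classes.

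Pancreatic ducts are lined by an epithelium that expresses keratins such as KRT7 and KRT19 and secretes a fluid rich in bicarbonate through the CFTR channel. In the embryo, the pancreas and bile ducts bud from the foregut endoderm behind the part that forms lung, oesophagus and stomach, and SOX2 marks that anterior part. PAX6, ISL1 and MEIS2 are homeodomain factors best known from the eye, nervous system and pancreatic islet. Cultured duct cells can mix basal-type cells, which carry TP63 and KRT5, with polarized secretory cells.

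SOX2-low ductal cells were present on every day. They made up 849 of 6224 WT cells at day 2 (13.6%, Clopper-Pearson interval 12.8 to 14.5), 1571 of 5326 at day 5 (29.5%, 28.3 to 30.7), 1135 of 4634 at day 7 (24.5%, 23.3 to 25.8) and 1306 of 5416 at day 9 (24.1%, 23.0 to 25.3). The share was thus lowest at day 2, and it depended on the SOX2 limit: at 2 CPM in place of 10 CPM it was 1.94% at day 2 and 24.5%, 18.9% and 22.9% later, since clusters 19, 22, 33 and 34 then fell outside. With 10 CPM the intervals of day 7 and day 9 overlapped. Over the same days the SOX2-high ductal cells went from 57.9% to 31.0%, 26.2% and 15.6% of WT cells. Median depth in the SOX2-low ductal cells was 13303, 20484, 18705 and 15618 UMIs per cell, against 16686, 15386, 14922 and 14640 in the other WT cells. Of the WT cells, 118 had a barcode that also occurred in another WT library, and 24 of these were SOX2-low ductal cells.

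**Figure D1:**
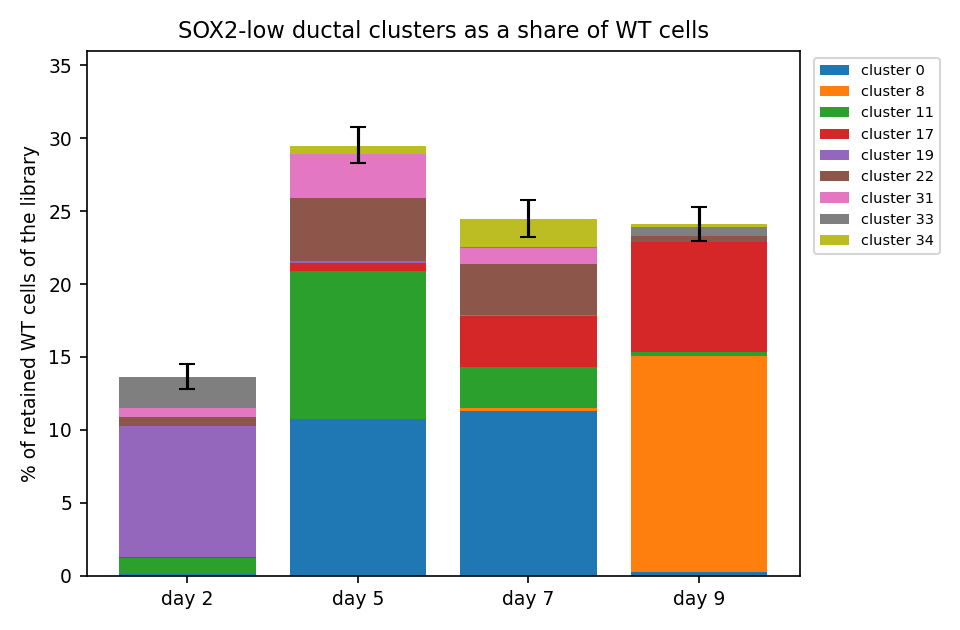
Share of retained WT cells (y axis, percent) that lay in the 9 SOX2-low ductal clusters in the library of each day (x axis), with colours for clusters and black bars for the 95% Clopper-Pearson interval of the total. The total was 13.6% at day 2 and between 24.1% and 29.5% later, and different clusters filled the bar on different days.

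The 9 clusters followed the day of culture. Cluster 19 held 570 cells, 556 of them from day 2, and cluster 33 held 130 from day 2 and 33 from day 9. Cluster 0, the largest with 1117 cells, held 571 from day 5 and 524 from day 7. Clusters 11 (756 cells) and 31 (251 cells) held mostly day 5 cells, and cluster 22 (453 cells) was spread over day 5 and day 7. Cluster 34 (135 cells) was largely of day 7. At day 9 cluster 8 held 801 of the 1306 cells and cluster 17 held 406. Cluster 8 had 9 cells from earlier days in all (0 at day 2, 1 at day 5 and 8 at day 7), whereas cluster 17 had 6, 30 and 161. With 1 library a day, a cluster that is nearly all of 1 library cannot be told apart from that library.

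The SOX2 level separated the clusters widely. Within the 9 clusters it ran from 0.806 CPM in cluster 0 to 2.77 CPM in cluster 33, the cluster just inside the limit, and 154 SOX2 UMIs were counted in all 100138237. The ductal cluster just outside the limit was cluster 39, at 73.1 CPM in 32 cells of day 2. No WT cluster lay between 4.87 and 50.6 CPM. The 3 SOX2-low clusters of other classes were cluster 30 (centroacinar, 3.3 CPM), cluster 27 (proliferating ductal, 3.97 CPM) and cluster 38 (centroacinar, 4.87 CPM).

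PAX6, a paired-box and homeodomain factor, had the opposite order. It ran from 73.6 CPM in cluster 8 to 149 CPM in cluster 31 over the 9 clusters. The 3 other SOX2-low clusters had 96.2, 215 and 58.4 CPM of PAX6. Clusters 36, 40, 39, 29 and 35 had both genes, with 50.6 to 86.4 CPM of SOX2 and 17.7 to 78.6 CPM of PAX6, and they held 554 cells. UMIs of both genes were found in 86 of the 282 cells of cluster 29, 46 of 97 in cluster 36, 19 of 32 in cluster 39, 13 of 29 in cluster 40 and 1 of 114 in cluster 35. The median depth was 18189 UMIs in cluster 29, the largest of the 5, close to the 17544 of the SOX2-low ductal cells. It was 27837 UMIs in cluster 36, 26941 in cluster 39, 49263 in cluster 40 and 1898 in cluster 35. The authors had removed doublets before they deposited the cell table, and the part of remaining doublets in these clusters was not tested.

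**Figure D2:**
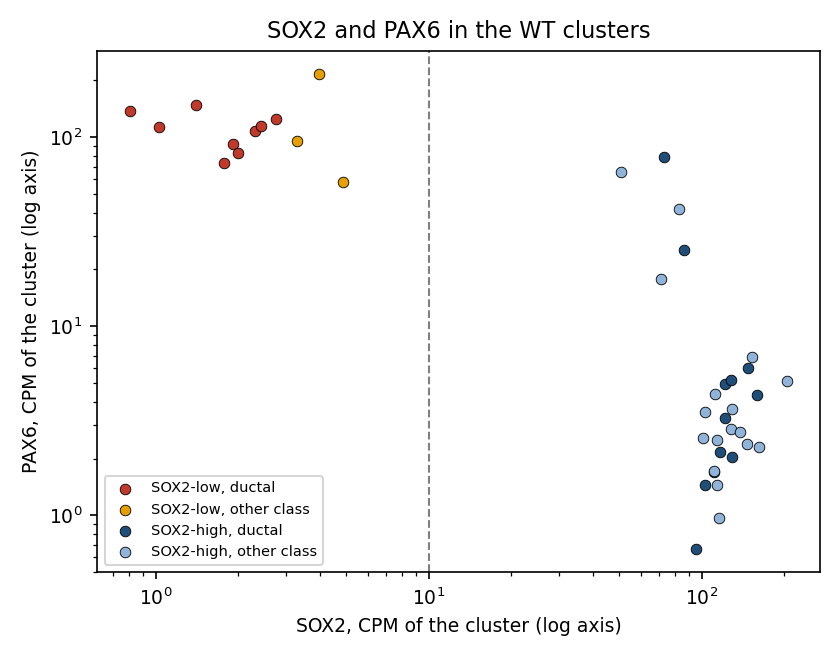
SOX2 (x axis) against PAX6 (y axis) in CPM of each of the 41 WT clusters, both on log axes, with the limit of 10 CPM as a dashed line. The 12 clusters left of the line had 58.4 to 215 CPM of PAX6, and those right of it had both genes only in 5 clusters between 50.6 and 86.4 CPM of SOX2.

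The values in single cells describe the same choice, since the clusters were chosen by SOX2 summed over these cells. Each cell was thinned to 3000 UMIs. A SOX2 UMI was found in 23 of 4842 SOX2-low ductal cells (0.475%, 0.301 to 0.712) and in 29.2% of 15743 cells of SOX2-high clusters. A PAX6 UMI was found in 27.3% (26.01 to 28.54) and in 1.28% (1.11 to 1.47), respectively. The SOX2-high cells include the mixed clusters, and the part of free RNA in the shares of either gene was not tested. The median depths before thinning were 17557 and 15508 UMIs, and 19 and 378 shallower cells were left out. Both genes together were seen in 5 SOX2-low ductal cells and in 0.356% of the SOX2-high cells. Without thinning, SOX2 was seen in 2.26% and PAX6 in 76.5% of SOX2-low ductal cells, against 74.6% and 6.22% in SOX2-high cells. Both were then seen in 97 of the 110 SOX2-low ductal cells with a SOX2 UMI, and in 805 SOX2-high cells (4.99%). Whether the genes met in single cells less often than their separate shares would give was not tested.

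The 5 marker genes of these cells, PAX6, ECRG4, NRN1, CKB and RHOV, were higher than in the other WT cells on all 4 days. PAX6 was at 113, 134, 110 and 80.2 CPM at day 2, 5, 7 and 9, against 6.98, 26.7, 15.5 and 9.91 CPM in the other WT cells. SOX2-low cells of other classes, 0.8% to 6.13% of the other WT cells, held 21.6%, 90.7%, 63.4% and 48.1% of the latter's PAX6 UMIs at day 2, 5, 7 and 9. In SOX2-high ductal cells PAX6 was at 6.13, 1.79, 2.44 and 1.06 CPM.

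CKB, the brain-type creatine kinase, was at 131, 157, 146 and 141 CPM in SOX2-low ductal cells and at 2.63, 17.1, 13.4 and 11.7 CPM in the other WT cells. NRN1, the membrane-anchored neuritin, was at 273, 266, 242 and 121 CPM against 4.82, 26.5, 21.8 and 13.6 CPM. RHOV, a small GTPase, was at 127, 76.7, 107 and 132 CPM against 1.83, 9.79, 11.7 and 14.4 CPM. CKB held the most even level over the days of these genes, and NRN1 was lowest at day 9. In SOX2-high ductal cells CKB, NRN1 and RHOV stayed between 1.06 and 3.53 CPM on all 4 days.

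ECRG4, which encodes a secreted peptide precursor, behaved differently. It was at 97.8, 45.8, 94.0 and 229 CPM in SOX2-low ductal cells, against 3.47, 19.0, 30.2 and 35.9 CPM in the other WT cells. SOX2-low cells of other classes held 72.8% to 96.6% of the latter's ECRG4 UMIs by day. Among the 9 clusters ECRG4 ran from 0.985 CPM in cluster 0 to 667 CPM in cluster 17. Clusters 33 and 22 had 222 and 198 CPM, and clusters 34 and 8 had 1.67 and 2.91 CPM. ECRG4 thus marked some of the clusters and was nearly absent from the largest, while PAX6, CKB, NRN1 and RHOV were at 46.2 CPM or more in all 9.

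**Figure D3:**
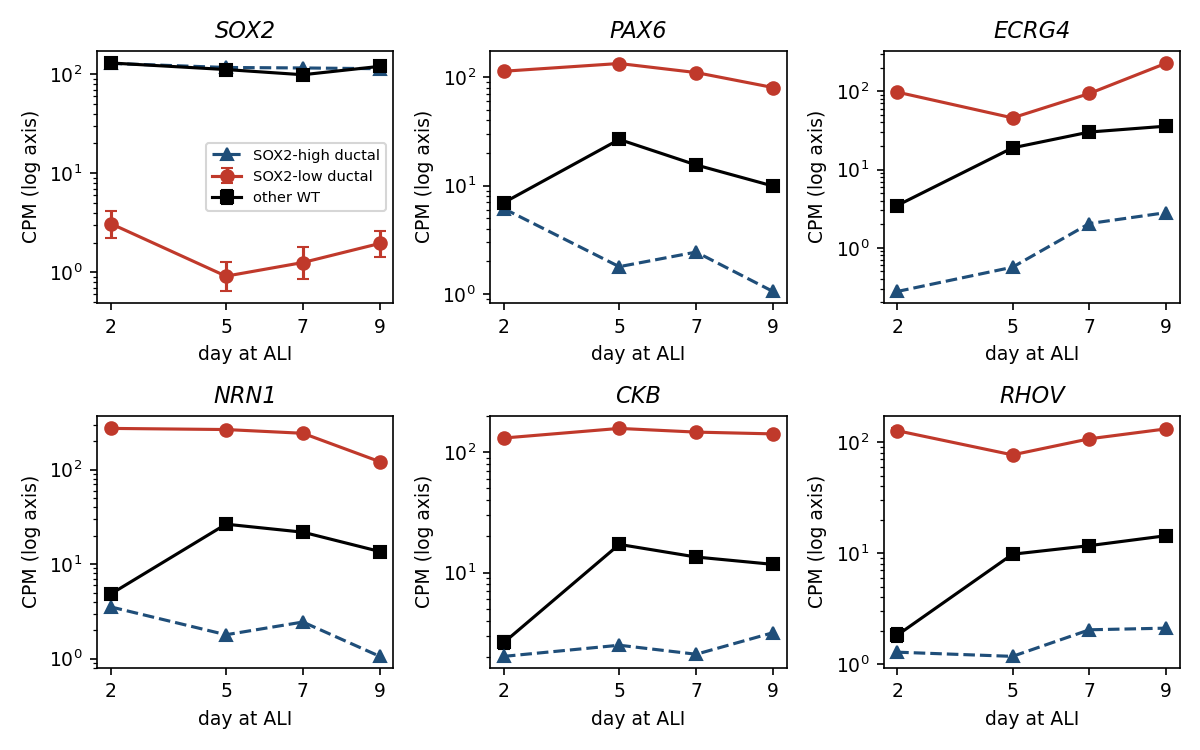
CPM (y axes, log scale) of SOX2 and the 5 marker genes by day at ALI (x axes) in SOX2-low ductal cells (red), the other WT cells (black) and SOX2-high ductal cells (blue, dashed), with 95% Poisson intervals for the first 2 groups. SOX2 stayed at or below 3.11 CPM in the SOX2-low ductal cells and above 98 CPM in the others, and the 5 markers had the reverse order on each day.

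Across 7383 genes with at least 10 CPM in either group on every day, 101 (1.37%) were at least 2-fold higher in SOX2-low ductal cells than in the other WT cells on all 4 days. In the other direction, 171 (2.32%) were at least 2-fold lower on all 4 days. Against SOX2-high ductal cells alone, 183 of 7396 genes (2.47%) were higher and 129 (1.74%) lower, and 88 of the 101 and 83 of the 171 genes were also in these sets. A gene low in 1 group could pass the 10 CPM limit only by being high in the other, which fixes its direction. Of the genes called, 30 higher and 51 lower ones had at least 10 CPM in both groups on every day, of 6462 such genes (0.464% and 0.789%). Against SOX2-high ductal cells these numbers were 48 and 36 of 6349 (0.756% and 0.567%). List counts below are over genes at 10 CPM in both groups, a limit chosen after the data were seen, and genes below it are given by their levels alone. Day 2 limited the counts: over day 5, 7 and 9 alone, 161 genes were higher and 337 lower than in the other WT cells. Differences are log2 of CPM plus 1, which understates those of low genes. The median difference of all genes tested was 0.01.

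By the day of their smallest difference, the genes furthest above the other WT cells were CKB, NRN1, LOC123386962, HSPB1 and RHOV. HSPB1, a small heat shock protein, was at 1659, 1458, 1414 and 1683 CPM against 54.7, 196, 134 and 126 CPM. It also varied among the clusters, from 379 CPM in cluster 17 to 2388 CPM in cluster 8. TSPAN15, a tetraspanin that guides the protease ADAM10, was at 99.8, 111, 89.2 and 84.2 CPM against 2.25, 14.9, 10.9 and 11.1 CPM. GUCA2A, the gut peptide guanylin, was at 800, 909, 724 and 500 CPM against 47.9, 108, 122 and 66.3 CPM. TIMP1, an inhibitor of matrix metalloproteases, differed by 2.16 to 2.58 on the log2 scale, and ETFA, a mitochondrial electron transfer flavoprotein, by 1.72 to 1.89. Apart from GATA3, no other gene of the 15 ranked highest had differences as even over the days. G0S2, an inhibitor of triglyceride breakdown, fell from 378 CPM at day 2 to 116 CPM at day 9 and stayed above the other WT cells by 1.51 to 2.67.

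The genes furthest below the other WT cells were WFDC2, SOX2, LOC106003392, TGFBI and LOC101685649. The mean log2 difference of LOC106003392 over the 4 days was -4.76, but only -0.41 against SOX2-high ductal cells. WFDC2, a secreted protease inhibitor of airway and duct surfaces, was at 2.60, 45.8, 38.5 and 318 CPM in SOX2-low ductal cells and at 145, 2633, 2162 and 15950 CPM in the others. It was higher at day 9 than at day 2 in both groups, and the log2 difference stayed between -5.82 and -5.34. In SOX2-high ductal cells WFDC2 was at 142, 102, 121 and 325 CPM, so at day 9 that comparison showed nearly equal levels. TGFBI, a matrix protein induced by TGF-beta, was at 7.45, 11.1, 7.72 and 9.18 CPM against 157, 425, 275 and 222 CPM. PANK4, a pantothenate kinase family member, was at 15.7 to 25.5 CPM against 275 to 484 CPM. PDZK1IP1, a small membrane protein of epithelia, was at 4.05 to 31.0 CPM against 146 to 425 CPM. ENPP3, an ectonucleotidase, was at 4.34 to 19.6 CPM against 91.3 to 598 CPM, but at 9.28 to 15.6 CPM in SOX2-high ductal cells from day 5 on. PROM1, an apical membrane glycoprotein of ducts, was at 3.33 to 15.6 CPM against 69.4 to 461 CPM. PROM1 was similarly low in SOX2-high ductal cells from day 5 on, at 4.95 to 11.1 CPM.

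Transcription factor genes differed in both directions. Of 15 epithelial transcription factors at 10 CPM in both groups, GATA3 and FOXQ1 were at least 2-fold higher and KLF4 lower on all 4 days, beside 0.464% and 0.789% of such genes. Others were below 10 CPM in 1 group on some or all days and are described by their values: FOXA2, SOX7, TBX2 and ISL1 were higher, and GRHL1, IRX5, SIX4, PITX1, TBX1 and PAX9 lower. Against SOX2-high ductal cells KLF4 and GRHL1 were not lower on all 4 days.

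ISL1, a LIM-homeodomain factor of islet cells and foregut mesenchyme, was at 41.8, 55.2, 43.1 and 47.8 CPM against 9.07, 13.7, 10.1 and 9.00 CPM. MEIS2, a partner of HOX proteins, was at 66.9, 82.4, 68.5 and 50.1 CPM against 2.27, 12.4, 7.40 and 6.32 CPM. FOXA2, a pioneer factor of endoderm, was at 37.0, 20.4, 21.6 and 29.1 CPM against 4.70, 6.82, 6.07 and 4.33 CPM. These 3 genes were higher on each day by 1.46 to 4.38 on the log2 scale. GATA3 was at 103 to 133 CPM against 23.2 to 34.2 CPM, and FOXQ1 at 585 to 853 CPM against 151 to 231 CPM. SOX7 was at 15.5 to 19.7 CPM against 0.387 to 2.75 CPM, and TBX2 at 10.2 to 14.7 CPM against 0.645 to 2.25 CPM. Cluster levels of these factors overlapped except for SOX7, whose lowest of the 9 clusters had 11.04 CPM and highest SOX2-high cluster 7.64 CPM. For ISL1 these values were 34.8 and 41.0 CPM, for MEIS2 41.1 and 42.1 CPM and for FOXA2 19.3 and 23.3 CPM. For GATA3 they were 88.6 and 96.8 CPM, for FOXQ1 429 and 557 CPM and for TBX2 7.07 and 7.75 CPM. The highest SOX2-high level was that of cluster 39 for ISL1, MEIS2, FOXA2, FOXQ1 and TBX2, and that of cluster 36 for GATA3. Both are mixed clusters with SOX2 and PAX6, so the overlap rests on them. Levels in the SOX2-high clusters that were not mixed are not given here. FOXA1 and GATA6, endoderm factors of the same families, were tested and did not pass: GATA6 differed by 0.03 to 0.53, and FOXA1 by -0.45 to 0.30.

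NKX2-1, the factor that defines lung and thyroid endoderm, was at 1.013, 0.357, 0.650 and 0.891 CPM in SOX2-low ductal cells and at 33.4, 18.8, 22.2 and 16.7 CPM in the others. The highest of the 9 clusters had 1.23 CPM of NKX2-1 and the lowest SOX2-high cluster 9.46 CPM, so these clusters did not overlap. PAX9, a factor of the pharyngeal pouches and oesophagus, was at 0.490 to 1.30 CPM against 15.97 to 18.5 CPM. TBX1, also of the pharyngeal endoderm, was at 0.280 to 2.60 CPM against 10.4 to 35.0 CPM. PAX9 and TBX1 likewise had their highest level among the 9 clusters (2.15 and 2.77 CPM) below the lowest SOX2-high cluster (6.82 and 4.09 CPM). IRX1, IRX2 and SIX2 fell short of 10 CPM on some days and were not tested, with 0.0255 to 1.37 CPM in SOX2-low ductal cells and 7.59 to 13.9 CPM in the others.

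HOX genes, which encode position along the body axis, were lower too. The 39 HOX genes in the files summed to 11.1, 17.9, 17.7 and 15.3 CPM in SOX2-low ductal cells and to 87.2, 124, 110 and 98.4 CPM in the other WT cells. None had 10 CPM in both groups. HOXB7 was at 3.33, 3.67, 3.01 and 3.97 CPM against 33.3, 53.4, 41.1 and 43.9 CPM. Its highest level among the 9 clusters was 5.84 CPM and its lowest among SOX2-high clusters 19.3 CPM. HOXA3 was at 0.586 to 1.02 CPM against 11.8 to 21.4 CPM.

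**Figure D4:**
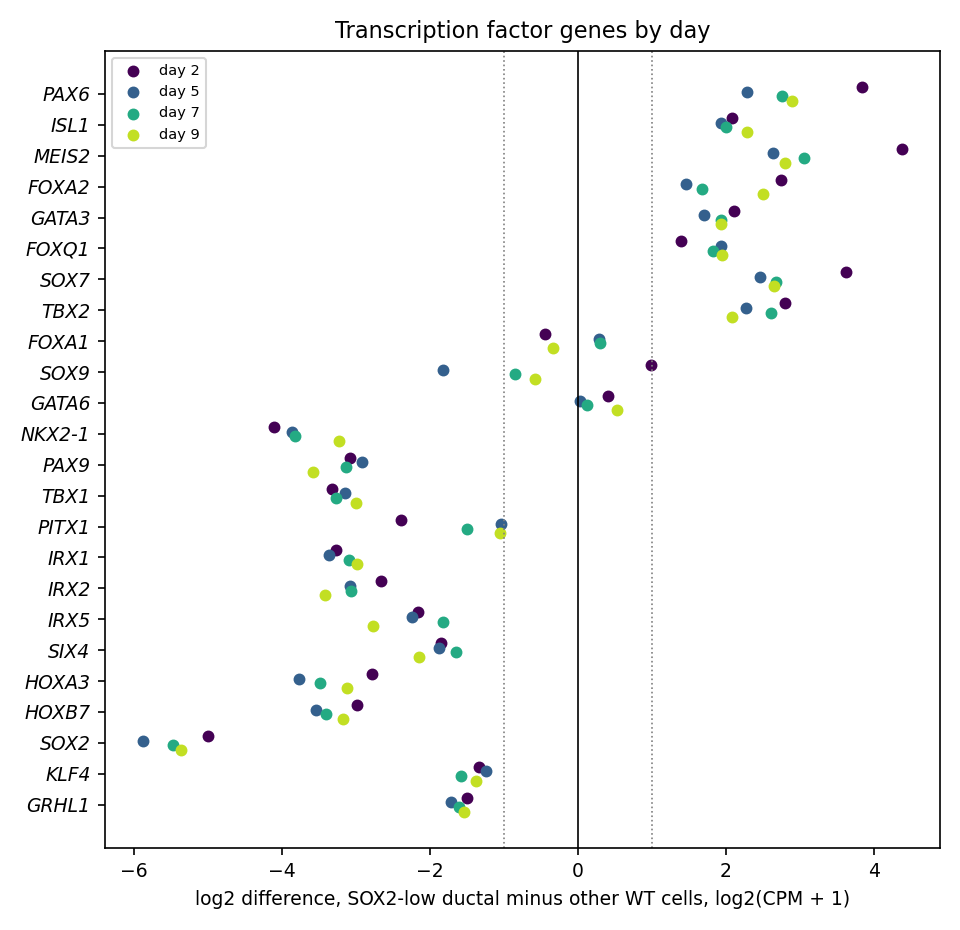
Log2 difference between SOX2-low ductal cells and the other WT cells (x axis, log2 of CPM plus 1) for 24 transcription factor genes (y axis), with 1 point a day and dotted lines at 2-fold. PAX6, ISL1, MEIS2, FOXA2, GATA3, FOXQ1, SOX7 and TBX2 lay above 2-fold on each day, FOXA1 and GATA6 lay within it, SOX9 crossed 2-fold downwards at day 5, and the other 13 genes lay below it on each day.

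The duct label was checked against duct genes. KRT19 was at 6750, 6591, 6035 and 5191 CPM and KRT7 at 3047, 3431, 3164 and 3959 CPM in SOX2-low ductal cells, and EPCAM, an epithelial adhesion molecule, at 116 to 164 CPM. SOX9, the factor that maintains duct identity, was at 7.09, 1.99, 5.00 and 7.71 CPM. CFTR was at 5.21, 4.69, 8.57 and 23.9 CPM, against 6.76, 24.7, 18.9 and 31.4 CPM in the other WT cells. The keratins were therefore abundant, while SOX9 stayed under 8 CPM on every day, as did the bicarbonate cotransporter SLC4A4 (1.58 to 4.99 CPM). Of 12 genes of duct epithelium at 10 CPM in both groups, 0 were higher and 0 lower on all 4 days. The shares of all such genes were 0.464% and 0.789%, so a count of 0 says little about the duct label. Each of the 9 clusters was also ranked against all other WT clusters. None of the 6 ductal markers named by the study, nor of its markers for other classes, was then among the 10 leading genes. Ranked within the SOX2-low ductal cells, the ductal marker KRT15 was among the 5 leading genes of cluster 0. The centroacinar progenitor marker MUC5AC was among those of cluster 17.

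PDX1, the master factor of pancreas formation, had 0 UMIs in the SOX2-low ductal cells, which allows up to 0.0300 CPM. INS, GCG, NKX6-1 and NEUROG3 also had 0 UMIs. All of these genes, PDX1 included, were at 0 CPM in every SOX2-high cluster too. Of 22 endocrine genes, ISL1 was the only one with enough counts to be tested. PAX6, the islet-associated marker described above, is not on that list. No digestive enzyme gene of the 9 in the files reached 10 CPM, and their sum was at most 1.65 CPM. Neural and endothelial genes summed to at most 0.134 and 0.163 CPM. Immune genes summed to 8.37 to 27.2 CPM, of which the leukocyte marker PTPRC had 2 UMIs in all cells together, and fibroblast genes to 29.2 to 41.5 CPM, mostly TWIST1.

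None of the genes of the airway list had 10 CPM in both groups. SCGB1A1, a secretoglobin of airway club cells, was at 0.127 to 0.579 CPM against 13.9 to 16.6 CPM. The summed level of the 15 airway genes in the files was 13.9, 14.7, 69.5 and 420 CPM against 192, 194.5, 212 and 324 CPM, so the order turned at day 9. SOX2, the gene that chose the cells, is on this list. A large part of the lower sum at day 2, 5 and 7 was therefore fixed by that choice. BPIFB1 and LTF made up most of the sum at day 9, at 117 and 270 CPM in SOX2-low ductal cells. In the urothelium list, which shares them with other epithelia, GATA3 and FOXQ1 were the 2 of 5 genes at 10 CPM in both groups that were higher, beside 0.464% of such genes, and 0 were lower. SHH, a secreted hedgehog ligand of ventral endoderm, was at 11.6, 21.2, 25.3 and 16.3 CPM against 3.88, 4.28, 6.41 and 2.94 CPM.

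Of 13 BMP signalling genes at 10 CPM in both groups, ID1 and ID3 were at least 2-fold higher on all 4 days and 0 were lower, beside 0.464% and 0.789% of such genes. Against SOX2-high ductal cells 1 of 13, ID1, was higher, beside 0.756% of such genes. ID1 and ID3, inhibitors of basic helix-loop-helix factors and direct BMP targets, were at 956 to 2072 and 1640 to 2202 CPM against 273 to 661 and 378 to 840 CPM. BMP3, a ligand that can oppose other BMPs, was at 34.7, 48.2, 60.0 and 87.2 CPM against 0.715, 6.39, 7.20 and 12.3 CPM. SMAD6, an intracellular inhibitor of the pathway, was at 12.2 to 22.2 CPM against 3.96 to 9.05 CPM. BMP3 and SMAD6 were below 10 CPM in the other WT cells on some or all days.

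Of 10 TGF-beta genes at 10 CPM in both groups, 0 were called in either direction on all 4 days, beside 0.464% and 0.789% of such genes. The 22 genes of the list summed to 1391, 1631, 2013 and 3394 CPM. In SOX2-high ductal cells they summed to 1079, 7900, 4771 and 7775 CPM, so they were higher there from day 5 on. TGFB2, a ligand, was at 0.940, 1.48, 1.67 and 6.82 CPM against 20.3, 73.9, 59.9 and 97.3 CPM. Of 10 NOTCH genes, LFNG, a glycosyltransferase that modifies the receptors, was the only one called, beside 0.464% of such genes, at 39.0 to 44.6 CPM against 10.1 to 21.1 CPM. Against SOX2-high ductal cells 0 of 10 NOTCH genes were called. None of 9 WNT genes and none of 9 genes of the FGF and EGF list passed in either direction on all 4 days. The 43 WNT genes summed to 618, 599, 667 and 1057 CPM, against 718, 2365, 1817 and 1941 CPM in SOX2-high ductal cells. Against SOX2-high ductal cells 2 of 9 genes of the FGF and EGF list were higher and 0 lower, beside 0.756% and 0.567% of such genes. FGFR3, a fibroblast growth factor receptor below 10 CPM in the other WT cells on most days, was at 11.6 to 34.0 CPM against 2.88 to 12.6 CPM.

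Among 12 genes of creatine and lipid metabolism, FABP5, a fatty acid binding protein, was the 1 that was higher, beside 0.464% of such genes. FABP5 was at 1298, 1354, 1277 and 809 CPM against 416, 455, 518 and 357 CPM. Among 19 genes of glycolysis and hypoxia P4HA1, a collagen hydroxylase induced by hypoxia, was higher and LDHB, a lactate dehydrogenase subunit, was lower, beside 0.464% and 0.789%. LDHB was at 21.8 to 36.9 CPM against 105 to 159 CPM. None of 25 respiratory chain genes passed in either direction, and their median difference was -0.07. The median share of mitochondrial UMIs was 7.81%, 6.69%, 10.2% and 10.4% in SOX2-low ductal cells and 9.40%, 6.56%, 11.1% and 10.2% in the others.

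Interferon-stimulated genes stood out at day 2. IFIT2 was higher on all 4 days, as 1 of 8 genes at 10 CPM in both groups, beside 0.464%. Against SOX2-high ductal cells 0 of 8 such genes were higher. The 22 genes of the list in the files summed to 1841 CPM at day 2 in SOX2-low ductal cells and to 551, 749 and 889 CPM later, against 440 to 504 CPM in the other WT cells. ISG15, a ubiquitin-like protein induced by interferon, was at 139 CPM at day 2 and at 6.66 to 15.4 CPM on later days, and at 9.65 CPM in the other WT cells of day 2. IFIT3 went from 61.1 to between 3.13 and 8.34 CPM. Over all days, cluster 33 had 325 CPM of ISG15 and 170 CPM of IFIT3, and cluster 19 had 116 and 41.6 CPM. The other 7 clusters had at most 16.02 CPM of ISG15 and 16.7 CPM of IFIT3. Among SOX2-high clusters the highest level was 1939 CPM of ISG15 and 447 CPM of IFIT3, so high interferon genes were not particular to SOX2-low ductal cells.

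S phase genes were highest at day 5 in these cells and lowest at day 9. They summed to 362, 561, 323 and 123 CPM over the 4 days, against 712, 236, 178 and 140 CPM in the other WT cells. MCM4, a subunit of the replicative helicase, was at 17.4, 39.7, 15.9 and 1.34 CPM against 42.3, 3.33, 2.69 and 0.786 CPM. The S phase sum was thus lower than in the other WT cells at day 2 and day 9 and higher at day 5 and day 7. The mitosis genes had another order, with 213, 308, 153 and 38.9 CPM over the 4 days against 594, 563, 197 and 28.7 CPM. They were thus lower than in the other WT cells on every day but day 9. The study named a separate proliferating class, so the other WT cells include cells chosen for cycling. SOX2-high ductal cells had 77.5, 36.7, 43.1 and 24.8 CPM of the mitosis genes, so SOX2-low ductal cells were above these on all 4 days. For the S phase genes SOX2-high ductal cells had 466, 276, 241 and 288 CPM. There SOX2-low ductal cells were lower at day 2 and day 9 and higher at day 5 and day 7. Cluster 31 carried most of the mitotic genes among the SOX2-low ductal cells, with 201 CPM of TOP2A and 101 CPM of MKI67. The other 8 clusters together had 2.82 and 1.17 CPM.

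Over the 4 days, 197 of 8173 genes (2.41%) rose at least 2-fold from day 2 to day 9 within SOX2-low ductal cells, with every step upwards. Another 90 genes (1.1%) fell at least 2-fold with every step downwards. Of these, 80 rising and 54 falling genes had at least 10 CPM on every day, of 6928 such genes (1.15% and 0.779%). Without cluster 8 the falling genes numbered 158 and without cluster 17 they numbered 140. The rising genes numbered 207 and 219, of which 99 and 131 were among the 197, so many of the rises rested on 1 of these clusters. The 10 largest rises among genes of at least 50 CPM fell into a group of secreted and mucosal genes (TFF1, TFF2, TFF3, LTF and MUC5AC), a group of contractile and matrix genes (TAGLN, SPARC and ANKRD1), and CLU and LOC101679442. Most of these started from levels near 0, so their direction was fixed by the limit of 10 CPM on a day and their levels are given as they are.

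TFF2, a trefoil peptide that stabilises mucus, was at 1.95, 17.3, 191 and 993 CPM, and TFF1 at 0.145, 2.22, 22.4 and 410 CPM. LTF, the iron-binding antimicrobial lactoferrin, was at 0, 5.45, 22.3 and 270 CPM. MUC5AC, a gel-forming mucin, was at 0, 1.58, 9.87 and 158 CPM. The same genes were higher at day 9 than at day 2 in the other WT cells, where TFF2 reached 83.5 CPM, TFF1 38.8 CPM, LTF 61.1 CPM and MUC5AC 115 CPM at day 9. TFF3 reached 433 CPM in SOX2-low ductal cells and 351 CPM in the others.

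CLU, the secreted chaperone clusterin, was at 163, 196, 353 and 6352 CPM in SOX2-low ductal cells and at 116, 3326, 1925 and 2808 CPM in the other WT cells. In SOX2-high ductal cells CLU was already at 8462 CPM at day 5 and at 9675 CPM at day 9. TAGLN, an actin-binding protein of contractile cells, was at 0.506, 3.82, 19.6 and 230 CPM, while SOX2-high ductal cells had 0.114, 1119, 431 and 1359 CPM. FN1, fibronectin, was at 0.0723 to 16.8 CPM against 1185, 379 and 984 CPM in SOX2-high ductal cells at day 5, 7 and 9. These 3 genes were thus high from day 5 on in SOX2-high ductal cells, and at each of those days lower in SOX2-low ductal cells.

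The largest falls were those of PRXL2A, a peroxiredoxin-like protein, from 436 to 80.3 CPM, and of UPK3BL2, a uroplakin-like gene, from 684 to 134 CPM. GPX2, a glutathione peroxidase of gut-type epithelia, went from 478 to 145 CPM. Inside cluster 0 GPX2 was at 457 and 449 CPM at day 5 and 7. At day 2, 5 and 7 it was at 528, 485 and 456 CPM in cluster 11 and at 332, 348 and 355 CPM in cluster 22. Cluster 17 had 13.1 CPM of GPX2 at day 9. PRXL2A and UPK3BL2 were lower at day 7 than at day 5 inside clusters 0, 11 and 22. The part of changing clusters in these falls was not tested. PRXL2A and GPX2 changed in the same direction in the other WT cells, by -3.06 and -3.32 on the log2 scale, whereas UPK3BL2 was higher there by 0.79. TP63, the basal cell factor, was at 111, 105, 113 and 77.4 CPM in SOX2-low ductal cells and at 83.0, 28.8, 35.8 and 12.1 CPM in the others. KRT5, the basal keratin, was at 788, 748, 780 and 569 CPM against 1116, 548, 722 and 290.5 CPM.

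At day 9 the SOX2-low ductal cells consisted mainly of 2 clusters that differed widely. Both came from the same library, so day does not separate them. Of 8286 genes tested, 1071 (12.9%) were at least 2-fold higher in cluster 17 than in cluster 8 and 966 (11.7%) at least 2-fold lower. Over the 6786 genes at 10 CPM in both clusters, 635 (9.36%) were higher and 552 (8.13%) lower. The median share of mitochondrial UMIs over all days was 14.2% in cluster 17 and 9.57% in cluster 8, and the median depth 16338 and 15412 UMIs. Their part in the differences was not tested.

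Mucin, trefoil and gastric genes were on the side of cluster 17. At day 9 its cells had 3364 CPM of TFF2 against 15.5 CPM in cluster 8, 1398 against 6.26 CPM of TFF1, 749 against 2.95 CPM of ECRG4 and 891 against 4.97 CPM of LTF. BPIFB1, a secreted antimicrobial of mucosal glands, was at 394 against 3.38 CPM, and MUC5AC at 526 against 4.32 CPM. The 3 mucin and trefoil genes at 10 CPM in both clusters (MUC1, MUC16 and TFF2) were all higher in cluster 17, as were the 3 of the gastric list (TFF2, PSCA and ANXA10), beside 9.36% of such genes. The other genes named here were below 10 CPM in cluster 8. Of the study's ductal markers at 10 CPM in both clusters, 4 of 5 (ADIRF, CAPG, S100A10 and KRT5) were higher in cluster 8 and 0 in cluster 17. Of its centroacinar progenitor markers 4 of 6, and of its centroacinar markers 3 of 4, were higher in cluster 17 and 0 in cluster 8. The shares of all such genes were 9.36% for cluster 17 and 8.13% for cluster 8.

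Ion transport genes were also on the side of cluster 17, with 6 of 10 genes at 10 CPM in both clusters higher and 0 lower, beside 9.36% and 8.13%. CFTR was at 58.6 against 9.72 CPM, and SLC12A2, which loads chloride across the basal membrane, at 805 against 97.8 CPM. SCNN1A, a subunit of the epithelial sodium channel, was at 113 against 5.33 CPM, and SOX9 at 20.4 against 2.38 CPM. CFTR, SCNN1A and SOX9 were below the limit in cluster 8. Of 16 junction genes at that limit, 4 were higher in cluster 17 (OCLN, CLDN4, CDH1 and PARD6B) and CLDN1 was lower.

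KRT5, the 1 gene of the basal keratin list at 10 CPM in both clusters, was at 815 CPM in cluster 8 against 12.8 CPM in cluster 17, and CLU was at 10057 against 129 CPM. TP63 was at 112 against 2.31 CPM, SPP1, the matrix phosphoprotein osteopontin, at 347 against 3.70 CPM, and FST, the activin-binding follistatin, at 171 against 0.926 CPM. These last 3 were below the limit in cluster 17. Of 8 mesenchymal and matrix genes at 10 CPM in both clusters, 3 were higher in cluster 8 (VIM, COL17A1 and LAMB1) and 0 in cluster 17, beside 8.13% and 9.36%. VIM was at 203 against 12.2 CPM, and TAGLN, below the limit in cluster 17, at 366 against 6.94 CPM. Of the BMP list, 6 of 14 genes at the limit were higher in cluster 8, including ID3 (2435 against 417 CPM), SMAD7 (140 against 10.2 CPM) and BMP2 (294 against 17.4 CPM), and BMP3 alone higher in cluster 17. Of 9 WNT pathway genes at the limit, LGR4, a receptor of R-spondins, was higher in cluster 17 (124 against 50.4 CPM), and 2 were higher in cluster 8, beside 9.36% and 8.13%. These were SFRP1, a secreted WNT antagonist (365 against 12.04 CPM), and CTNNB1, beta-catenin (307 against 147 CPM).

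**Figure D5:**
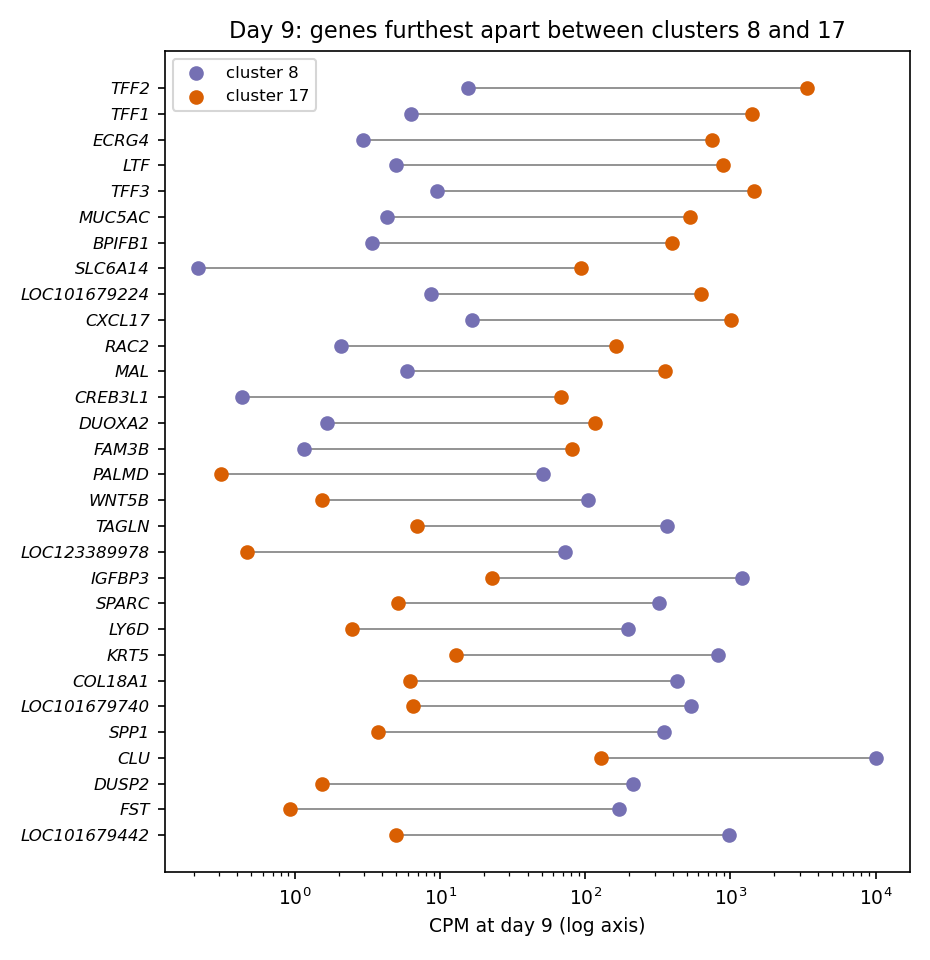
CPM at day 9 (x axis, log scale) in cluster 8 (801 cells, purple) and cluster 17 (406 cells, orange) for the 15 genes of at least 50 CPM furthest apart in each direction (y axis). TFF2, TFF1 and ECRG4 led on the side of cluster 17, and LOC101679442, FST and DUSP2 on the side of cluster 8.

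Of 17 epithelial transcription factors at 10 CPM in both clusters, 4 were higher in cluster 17 (ELF3, EHF, KLF5 and KLF4) and 2 in cluster 8 (FOXC1 and SOX4), beside 9.36% and 8.13%. FOXA2, FOXQ1, SOX7, TBX2, PAX6, ISL1, MEIS2 and GATA3 differed by less than 2-fold between the clusters at day 9. Over all days PAX6 was at 92.8 CPM in cluster 17 and 73.6 CPM in cluster 8, ISL1 at 34.8 and 53.8 CPM, MEIS2 at 66.8 and 41.1 CPM, and GATA3 at 104 and 119 CPM. NKX2-1 was at 0.907 and 0.852 CPM, and HOXB7 at 3.02 and 4.26 CPM. Split by day, PAX6 in cluster 17 was at 89.6, 98.8 and 90.1 CPM in its 30, 161 and 406 cells of day 5, 7 and 9.

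Inside cluster 17 some mucin, trefoil and defence genes were higher on each later day and others were not. TFF2 was at 920, 1621 and 3364 CPM in its cells of day 5, 7 and 9, and TFF1 at 126, 186 and 1398 CPM. MUC5AC was at 41.2, 76.5 and 526 CPM. LTF was at 353, 181 and 891 CPM and TFF3 at 276, 194 and 1449 CPM, so both were lowest at day 7. In cluster 0, TFF2 was at 0.334 CPM at day 5 and 4.49 CPM at day 7. The centroacinar cluster 30, SOX2-low as well, had 949, 454 and 903 CPM of TFF2 on these days, with no steady order, and 605 CPM of ECRG4 over all days.

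Clusters 0, 22, 34 and 11 had smaller leading differences than the other 5, where genes below 50 CPM were not ranked. Cluster 0 was led within the SOX2-low ductal cells by IGFBP3, an IGF-binding protein, at 1626 against 550 CPM, and by KRT15 at 54.6 against 19.8 CPM. Cluster 22 was led by LOC101680039 and by GKN1, a gastric mucosal peptide, at 89.9 against 33.4 CPM, with ZNF750 and G0S2 (594 against 246 CPM) among the next. Cluster 34 was led by LOC101679740 and GZMA, a serine protease gene, at 257 against 80.4 CPM. In cluster 11 the leading gene was DNPH1, at 92.8 against 41.4 CPM, a difference of 1.14 on the log2 scale.

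The pseudotime that the authors had deposited placed these cells on few of the 15 WT lineages. All 4861 cells had a score on at least 1 of lineages 1 to 4, and 0 had one on lineages 5 to 15. Of the SOX2-high ductal cells, 40.4% had a score on lineages 1 to 4 and 99.7% on lineages 5 to 15. The 618 SOX2-low cells of other classes all had a score on lineages 1 to 4, and 9.71% had one on the rest. Lineage 1 held 3123 of the SOX2-low ductal cells, 188 of them from day 2, and these stood at a median of 64.6 at day 2, 65.2 at day 5, 66.1 at day 7 and 82.0 at day 9, with SDs over cells of 3.50, 3.13, 4.72 and 8.82. The medians of day 2, 5 and 7 thus lay within 1 SD of each other, while SOX2-high ductal cells of day 2 stood at 22.02 (SD 7.40). Lineage 4 held 2840 of the cells, 751 of them from day 2, with medians of 87.9, 90.1, 88.8 and 64.3, so day 9 had the latest median on lineage 1 and the earliest on lineage 4. The score rests on the same expression values and starts in a cluster chosen for its day 2 cells, so it is not a separate measurement.

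Cluster 8 had the latest median of the 9 on lineage 1 (82.7, all 810 cells), and cluster 31 had the latest median of the 9 on lineage 2 (76.9, all 251 cells). All 603 cells of cluster 17 were on lineage 4 and 47 on lineage 1. On lineage 4 cluster 17 had the earliest median of the 9, at 64.3, followed by cluster 33 at 72.0 and cluster 22 at 82.2, whereas cluster 19, of day 2, stood at 89.4. The day 9 cells of cluster 17 were therefore ordered before the day 2 cells of cluster 19 on that lineage.

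The CF cells of the same days are set beside these cells for a few genes. PAX6 was at 84.0, 68.5, 57.1 and 47.5 CPM and ISL1 at 21.7 to 27.6 CPM over all CF cells, and SOX2 was at or below 0.0864 CPM. MEIS2 was at 3.82 to 5.82 CPM and SHH at or below 0.115 CPM in CF cells, both far below the SOX2-low ductal cells. ECRG4 was at 1551 to 2656 CPM in CF cells, and PDX1, at 0 UMIs in the SOX2-low ductal cells, was at 3.37 to 5.04 CPM.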

How the data were processed

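Single-cell RNA libraries of WT and CF ferret PDE cultures, 1 per genotype and day, were grouped by the sample titles. The authors counted UMIs with Cell Ranger 5.0.1 on ASM1176430v1.1 and deposited raw counts per gene and barcode. The authors filtered cells in Seurat, including by the percent of mitochondrial UMIs, removed doublets with DoubletFinder, clustered in Seurat, named classes with the help of clustifyr and scored pseudotime with slingshot. The deposited normalized table was not used. UMIs of retained cells were summed by group and day and scaled to CPM. Differences were log2 of CPM plus 1, called at 2-fold in 1 direction on all 4 days among genes of at least 10 CPM in either group, and for lists in both. Intervals were exact Poisson for sums and Clopper-Pearson for shares, and a count of 0 was given the limit of 3 counts. No test was run, since there was 1 library per genotype and day and groups within a library were clusters of its own cells. The code that counts calls was run on simulated Poisson counts with planted fold changes. These had no clusters and no choice of cells by SOX2, so the run checks the code and not the calls. Named genes were the supplied markers, the 15 furthest from the other WT cells in each direction by their smallest daily difference among genes of at least 50 CPM, the 10 largest rises and falls, the 5 leading genes of a cluster, and members of lists that passed or that the study names. Further genes that did not pass (TP63, KRT5, FN1, IRX1 and the like) were chosen after their values were seen. The members, lists and rules were chosen with earlier results of these data known. TMM factors came from edgeR 4.0.16 and size factors from DESeq2 1.42.0, in R 4.3.3. Other steps ran in Python 3.11.15. A few genes of the lists are not reported here.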

Additional observations from a re-analysis of the deposited data

How the results depend on the processing

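No paired analysis was possible because the groups set side by side within each of the 4 WT libraries are clusters formed on the same genes, so their differences by day are a description. With SOX2-low clusters of every class, the share of WT cells was 33.8%, 27.5% and 27.9% at day 5, 7 and 9. With a SOX2 limit of 2 CPM it was 1.94%, 24.5%, 18.9% and 22.9% at day 2, 5, 7 and 9, since clusters 19, 22, 33 and 34 then fell outside. With deposited barcodes as denominator it was 12.2%, 23.0%, 16.9% and 17.6%. The genes higher on all 4 days numbered 183 against SOX2-high ductal cells, 33 with a minimum of 50 CPM, 224 with no minimum and 161 without day 2. The genes lower numbered 55 with a minimum of 50 CPM, 352 with no minimum and 337 without day 2. The genes that rose numbered 80 with a minimum of 50 CPM, 354 with no minimum and 413 with no requirement on the steps, and those that fell 45 with 50 CPM and 229 with no requirement. Genes at 10 CPM in both groups numbered 30 higher and 51 lower, and at 10 CPM on every day 80 rising and 54 falling. This limit was chosen after the data were seen. Leaving out cluster 8 or 17, chosen after the data were seen, gave 158 and 140 falling genes, of which 65 and 64 were among the 90, and 207 and 219 rising genes, of which 99 and 131 were among the 197. At day 9 TMM factors shifted SOX2-low ductal cells against the other WT cells by -0.13 on the log2 scale. Falling genes numbered 129 with TMM factors and 128 with DESeq2 size factors. Unthinned, the share of cells with a UMI was 2.26% for SOX2, 76.5% for PAX6, 11.01% for ECRG4, 89.7% for NRN1, 88.1% for CKB and 69.5% for RHOV. Of 33 named genes taken through 4 alternatives, LOC101680039 alone reversed, to 0.39 against SOX2-high ductal cells. In that comparison 29 others moved in either direction. PAX6 went from 2.94 to 4.98, while LOC106003392 went from -4.76 to -0.41 and LOC101672663 from -3.10 to -0.22. None of the 9 clusters had a median depth under 1 part in 3 of its library, so none was left out on that ground. Clusters 20, 35 and 38 of the other WT cells had 0.210, 0.117 and 0.182 of the depth of their libraries. Leaving those out was not tried. Depth limits what can be said of genes under about 1 CPM.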
